A study of Homo sapiens with 13 samples.

Results

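The annexins studied here were 10 genes of the calcium-dependent membrane-binding family, *ANXA1*, *ANXA2*, *ANXA3*, *ANXA4*, *ANXA5*, *ANXA6*, *ANXA7*, *ANXA9*, *ANXA11* and *ANXA13*, taken by symbol from the 56831 genes listed for each library. An annexin has a core of conserved repeats that binds negatively charged phospholipids when calcium rises, and a variable N-terminal tail that sets its partners. Through this switch annexins scaffold the inner face of the plasma membrane, take part in vesicle trafficking and exocytosis, and help to reseal damaged membranes, and some act outside the cell. In lung tissue *ANXA1* and *ANXA2* are known mainly from epithelial, myeloid and mesenchymal cells rather than from neuroendocrine (NE) cells.

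RNA was sequenced from H82 and H146, established human small cell lung cancer (SCLC) lines with wild-type genotype in the labels, to ask how blocking SMARCA4 and SMARCA2 changes gene expression. SMARCA4 and its paralog SMARCA2 are the ATPases of the SWI/SNF chromatin remodeling complex, and FHD-286 is an allosteric inhibitor of both. The groups were untreated H82 (3 libraries), H82 under 100 nM FHD-286 for 14 days (3 libraries), untreated H146 (3 libraries) and H146 under the same treatment (4 libraries). Each line is 1 model of its subtype, nothing in the labels says that replicates came from separate cultures, and *p* values therefore measure only the spread between these libraries. Values are TPM, the usual length-normalized unit of transcript abundance, in which the reads of a gene are divided by its length and every library is scaled to the same sum. The number of reads is not in TPM, so depth is unknown and no counting interval was drawn.

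Between 15554 and 16633 genes reached 1 TPM in treated H82 and between 21227 and 21772 in untreated H82, and the ranges in H146 were 18778 to 19309 with the drug and 17476 to 17965 without it. Treated H82 replicate 2 stood apart. A set of 114 genes with at least 20 TPM in every untreated H146 library and under 0.1 TPM in every untreated H82 library had a median of 0.64 TPM in it, against 0.204 and 0.0962 TPM in the other treated H82 libraries, 0 in the untreated ones and 47.3 TPM in untreated H146. The source of this RNA was not tested, and results are given without that library where it changed a call. NE markers of the fixed list (*SYP*, *CHGA*, *NCAM1*, *INSM1*, *NEUROD1*) summed to 610 to 660 TPM in untreated H82 and to 178, 577 and 288 TPM in treated H82, of which replicate 2 held the 577 TPM, with *INSM1* at 296 TPM. The sum hid opposite directions, since *INSM1* was at 12.5 to 15.8 TPM untreated and at 32.1, 296 and 33.9 TPM treated. *SYP*, *CHGA* and *NEUROD1* were lower in every treated H82 library. In H146 the list summed to 1377 to 1679 TPM untreated and 983 to 1244 TPM treated. Most of this was *INSM1*, at 1140 to 1405 TPM untreated and 758 to 1018 TPM treated. For the other markers treated and untreated H146 libraries overlapped.

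Treated and untreated libraries were compared within a line by limma on log2(TPM + 1). Only genes that reached 1 TPM in 3 or more libraries of the line were tested, and a gene was called at an adjusted *p* under 0.05 (two-sided, Benjamini-Hochberg over all of them). A log2 fold change on this scale understates the change of genes near 1 TPM. In H82 8 annexins were tested, of which 5 were higher, 1 was lower and 2 were not past the threshold, where 58.6% of 19770 genes were called, 13.1% as higher and 45.5% as lower. The H82 counts and median given here include *ANXA3*, which passed the filter only through the treated libraries, so its groups could not overlap. In H146 9 were tested, of which 2 were higher, 3 were lower and 4 were not past the threshold, where 47.9% of 19585 genes were called, 32.5% as higher and 15.5% as lower. Treated and untreated libraries did not overlap for 6 of the tested annexins in each line. Among all genes tested this held for 67.8% in H82 (16.4% higher and 51.4% lower) and for 52.9% in H146 (35.7% higher and 17.3% lower). Tested annexins had a median log2 fold change of 0.73 in H82, beside -0.56 for all genes, and of -0.22 in H146, beside 0.25 for all genes.

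Scaling the libraries by the median of ratios moved the medians of all genes to -0.14 (H82) and -0.02 (H146). The share of called genes that were higher then went from 22.3% to 42.4% in H82 and, in H146, from 67.7% to 45.9%, and quantile normalization gave 47.7% and 53.1%. Under either scaling 6 annexins were higher and 0 lower in H82. In H146 2 were higher and 5 lower under the median of ratios, and 1 higher and 5 lower with quantile normalization.

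**Figure D1:**
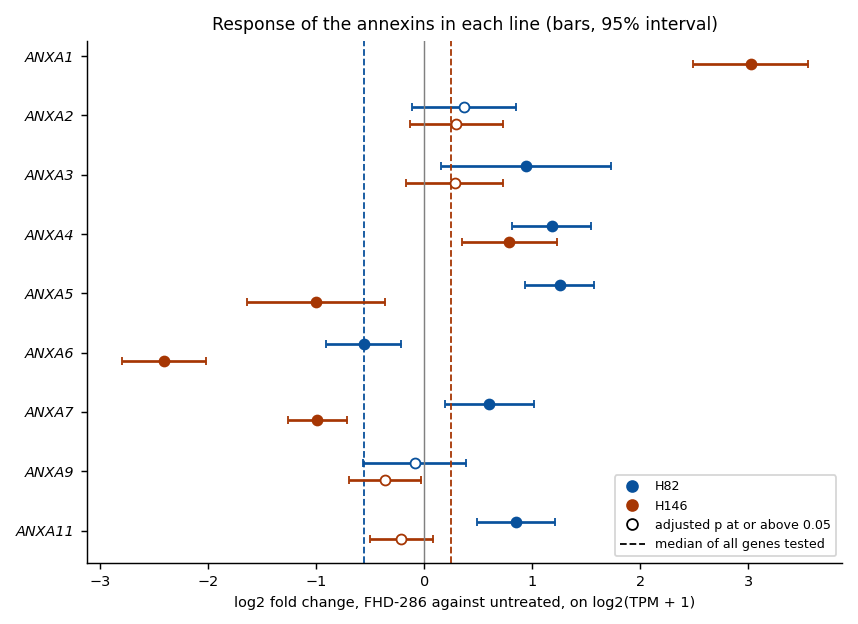
Log2 fold change of each annexin upon FHD-286 on log2(TPM + 1) (x axis, with 95% limma intervals as bars), H82 in blue and H146 in red, filled where the adjusted *p* was under 0.05, with the median of all genes of each line as a dashed line. *ANXA5* lies at 1.25 in H82 and at -1.01 in H146, *ANXA7* at 0.60 and -0.99, and *ANXA4* to the right of 0 in both lines.

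The sequences before the transcription starts of 4 annexins are shown, because *ANXA1* carried the largest rise among the annexins in H146, *ANXA2* was the most abundant annexin in 3 of the 4 groups, and *ANXA5* and *ANXA7* moved in opposite directions in the lines. They are from RefSeq (build GRCh38.p14), read 5′ to 3′ in the direction of the gene, from the 250 bases before the start and without bases that GENCODE release 44 places in an exon. Capitals mark a TATA match (TATAAA or TTTATA) in *ANXA1* and an AP-1 match (TGAGTCA or TGACTCA) in *ANXA2*.
ANXA1, chr9:73151615-73151864 (plus strand): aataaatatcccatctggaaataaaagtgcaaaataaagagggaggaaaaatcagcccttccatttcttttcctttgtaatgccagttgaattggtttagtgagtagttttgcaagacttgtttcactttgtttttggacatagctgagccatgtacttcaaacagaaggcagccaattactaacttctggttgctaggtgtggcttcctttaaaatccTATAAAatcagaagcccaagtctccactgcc
ANXA2, chr15:60398078-60398114 (minus strand): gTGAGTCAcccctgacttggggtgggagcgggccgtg
ANXA5, chr4:121696996-121697230 (minus strand): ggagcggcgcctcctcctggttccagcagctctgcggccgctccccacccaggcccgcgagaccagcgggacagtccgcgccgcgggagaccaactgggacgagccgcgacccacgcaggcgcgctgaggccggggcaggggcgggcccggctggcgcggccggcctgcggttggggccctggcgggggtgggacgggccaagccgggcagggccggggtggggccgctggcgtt
ANXA7, chr10:73414077-73414308 (minus strand): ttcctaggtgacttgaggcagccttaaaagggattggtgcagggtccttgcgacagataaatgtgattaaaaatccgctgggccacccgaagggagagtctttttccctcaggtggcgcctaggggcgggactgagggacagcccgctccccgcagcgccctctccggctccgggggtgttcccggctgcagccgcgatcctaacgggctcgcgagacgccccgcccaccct

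The 250 bases before *ANXA1* held 0 CpG dinucleotides, where the median over 35116 RefSeq promoters was 11, and those before *ANXA2*, *ANXA5* and *ANXA7* held 28, 31 and 20. The TATA match of *ANXA1* began 31 bases before the start. *ANXA2* had a TATA match at the same distance, inside an annotated exon of longer transcripts and therefore not printed, and its AP-1 match began 127 bases before the start. TATA matches were found in 10.7% of the promoters, AP-1 matches in 4.2% and TEAD matches (GGAATG or CATTCC) in 11.9%, counting both strands, and no pair of these motifs overlapped in the sequences shown. No TEAD match was in any of the 13 promoters of the 9 annexins searched. A match is a description of letters and not a site shown to be bound.

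**Figure D2:**
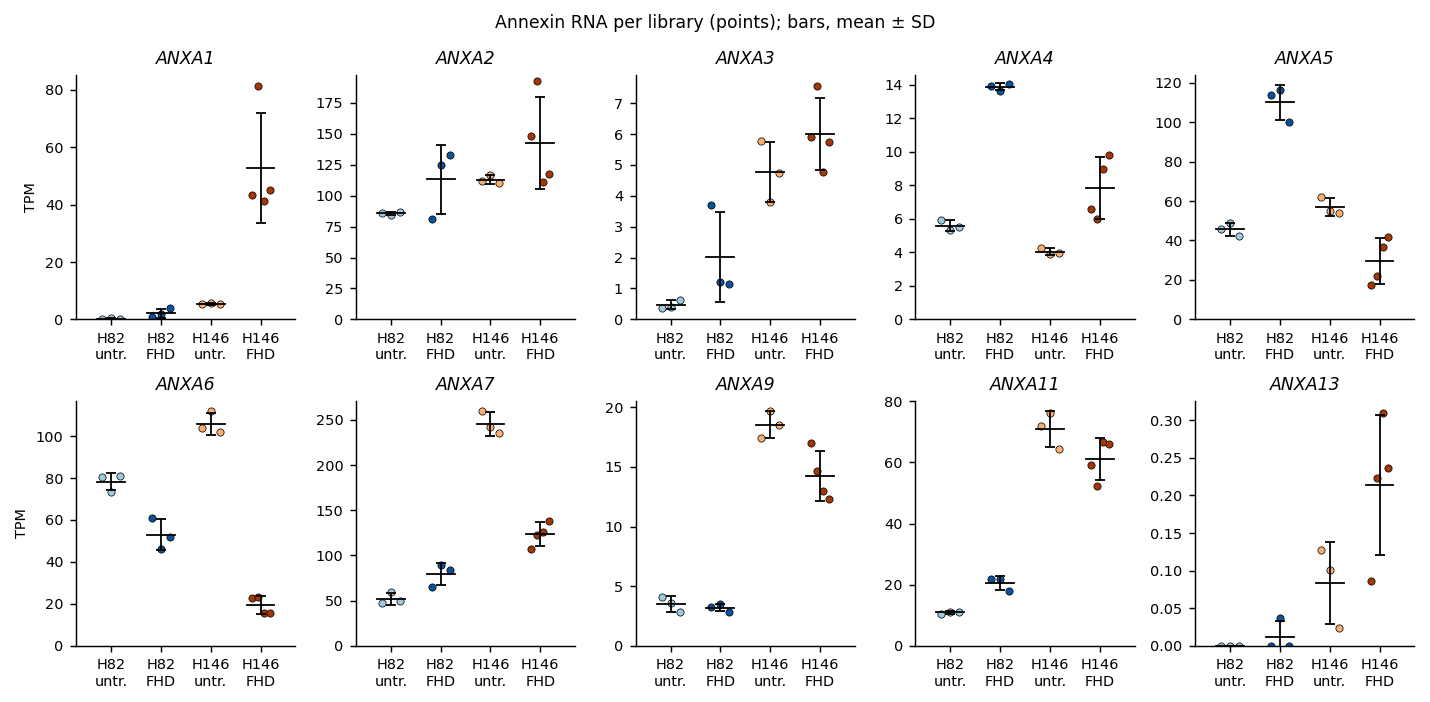
TPM of each annexin (y axis, linear and starting at 0, scaled per panel) in the 13 libraries, with points for libraries and bars for mean ± SD, untreated (light) beside FHD-286 (dark) in H82 (blue) and H146 (red). *ANXA1* and *ANXA6* in H146 and *ANXA5* in both lines show no overlap between treated and untreated libraries, and 1 treated H146 library lies far above the other 3 for *ANXA1*.

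*ANXA1* (ENSG00000135046.14, chromosome 9, 73151865 to 73170393 in hg38) encodes a glucocorticoid-induced, anti-inflammatory annexin that is secreted and whose N-terminal peptides act on formyl peptide receptors. In untreated H146 it stood at 5.21, 5.57 and 5.32 TPM, and in treated H146 at 43.4, 81.3, 41.2 and 45.2 TPM. All treated libraries were above all untreated ones, and replicate 2 was far above the rest of its group. The log2 fold change was 3.02 (SE 0.23, limma adjusted *p* = 4.7e-05), higher than that of 99.8% of the genes tested in H146, and it ranged from 2.80 to 3.12 with 1 library left out. The mean rose 9.84-fold.

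In untreated H82 *ANXA1* was nearly silent, with 0, 0.341 and 0.0898 TPM. In treated H82 it was at 0.733, 1.73 and 3.89 TPM, so the groups did not overlap but treated values spread over a wide range. It missed the filter there and was compared with an exact permutation test of mean log2(TPM + 1), which gave a difference of 1.33 and *p* = 0.1, the smallest that 3 against 3 libraries allow. The treated H82 level remained under that of untreated H146 in every library. Receptors for *ANXA1* peptides were close to 0, and *FPR1*, *FPR2* and *FPR3* together summed to at most 0.138 TPM in H82 and 0.687 TPM in H146.

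*ANXA2* (ENSG00000182718.18, chromosome 15, 60347134 to 60402883), which pairs with S100A10 at the plasma membrane and there binds plasminogen activators, was abundant with and without the drug. H82 held 86.2, 84.3 and 86.8 TPM untreated and 81.5, 125 and 133 TPM treated. H146 held 112, 117 and 109.9 TPM untreated and 149, 192, 111 and 118 TPM treated. The untreated libraries were tight in both lines, whereas the treated ones spread from below or near the untreated level to well above it. The log2 fold change was 0.37 in H82 (95% interval -0.12 to 0.85, limma adjusted *p* = 0.162) and 0.30 in H146 (-0.13 to 0.73, limma adjusted *p* = 0.219), both short of the threshold. Without treated replicate 1 the value in H82 was 0.58 (limma adjusted *p* = 0.00067), and scaling by the median of ratios took it to 0.85 (limma adjusted *p* = 0.0059), whereas in H146 that scaling turned the value to -0.02. The processed pseudogene *ANXA2P2*, a near-identical copy, was at 4.24% to 8.18% of the *ANXA2* value over the 13 libraries, so some reads could have been split between them.

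*ANXA5* (ENSG00000164111.15, chromosome 4, 121667946 to 121696995) encodes the annexin used as a stain for phosphatidylserine on dying cells. It rose in H82 and fell in H146. In H82 the untreated libraries were at 45.6, 49.0 and 42.4 TPM and the treated ones at 114, 116.5 and 100.0 TPM. In H146 the untreated libraries were at 62.3, 55.0 and 54.1 TPM and the treated ones at 17.6, 22.2, 36.8 and 41.8 TPM. Groups did not overlap in either line, and the treated H146 libraries fell into a lower and a higher pair. The log2 fold change was 1.25 in H82 (SE 0.13, limma adjusted *p* = 0.000425) and -1.01 in H146 (SE 0.28, limma adjusted *p* = 0.018). The H82 call held with any library left out, whereas the H146 call was lost without untreated replicate 1 (limma adjusted *p* = 0.0651) or 3 (limma adjusted *p* = 0.0558).

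*ANXA4* (ENSG00000196975.16, chromosome 2, 69644425 to 69827112), an annexin of epithelial apical membranes and secretory granules, was the only member called higher in both lines. H82 went from 5.95, 5.30 and 5.48 TPM to 14.0, 13.7 and 14.1 TPM. H146 went from 4.27, 3.92 and 3.96 TPM to 6.59, 5.995, 8.96 and 9.83 TPM. Treated libraries were above untreated ones throughout, with almost no spread in H82 and a wider one in H146. Its log2 fold change was 1.18 in H82 (SE 0.15, limma adjusted *p* = 0.000849) and 0.79 in H146 (SE 0.19, limma adjusted *p* = 0.0106), the latter at 0.51 with quantile normalization (limma adjusted *p* = 0.0523). *ANXA4* overlaps *AAK1* and other genes on the opposite strand, and the strandedness of the libraries is not given in the sources used here, so reads of these genes could not be told apart with certainty.

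*ANXA3* (ENSG00000138772.13, chromosome 4, 78551747 to 78610451), known from neutrophil granules, was low. H82 went from 0.374, 0.405 and 0.639 TPM to 3.71, 1.22 and 1.15 TPM, and H146 from 5.76, 3.80 and 4.74 TPM to 5.92, 7.57, 4.77 and 5.74 TPM. The H82 groups did not overlap, and treated replicate 1 held the highest value, while the H146 groups overlapped. In H82 the log2 fold change was 0.94 (SE 0.33, limma adjusted *p* = 0.0441). It passed the filter there only through the treated libraries and had to differ for that reason. The call was lost with no filter (limma adjusted *p* = 0.0995) and without any of the untreated libraries, and with a treated library left out the gene was not tested. In H146 the value was 0.28 (95% interval -0.17 to 0.73, limma adjusted *p* = 0.265).

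*ANXA6* (ENSG00000197043.15, chromosome 5, 151100706 to 151157815), the large annexin with a duplicated core that acts in endocytosis and cholesterol transport, carried the largest fall among the annexins in H146. It went from 104, 112 and 102 TPM to 22.9, 23.2, 15.8 and 15.8 TPM. Both groups were tight and lay far apart, with the untreated mean 5.46-fold above the treated one. The log2 fold change was -2.41 (SE 0.17, limma adjusted *p* = 3.0e-05), lower than that of all but 1.33% of the genes tested, and it ranged from -2.50 to -2.32 with 1 library left out. In H82 it went from 80.4, 73.6 and 81.2 TPM to 61.0, 46.3 and 51.9 TPM. These groups did not overlap either, but the log2 fold change of -0.56 (SE 0.15, limma adjusted *p* = 0.0147) equaled the median of all genes in that line. Scaling by the median of ratios left -0.08 (limma adjusted *p* = 0.699), and without treated replicate 2 it was -0.47 (limma adjusted *p* = 0.0551). Leaving out untreated replicate 1 or 3 also lost the call, with limma adjusted *p* values of 0.0842 and 0.0873.

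*ANXA7* (ENSG00000138279.16, chromosome 10, 73375101 to 73414076), also called synexin and first described as a membrane fusion protein of chromaffin granules, was the most abundant annexin of untreated H146. It was at 260.3, 242 and 235 TPM there and at 107, 123, 126 and 139 TPM with FHD-286. In H82 it was at 46.9, 59.7 and 49.1 TPM untreated and at 65.4, 89.1 and 83.9 TPM treated. Groups did not overlap in either line, and the directions were opposite. The log2 fold change was -0.99 in H146 (SE 0.12, limma adjusted *p* = 0.000375), a call kept with any library left out. In H82 it was 0.60 (SE 0.17, limma adjusted *p* = 0.0212), and this call was lost without treated replicate 2 (limma adjusted *p* = 0.0732) or 3 (limma adjusted *p* = 0.0641), or without untreated replicate 1 (limma adjusted *p* = 0.109) or 3 (limma adjusted *p* = 0.101). A long noncoding RNA gene lies on the opposite strand of *ANXA7*.

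*ANXA11* (ENSG00000122359.18, chromosome 10, 80150889 to 80205572) encodes an annexin that binds S100A6 and the EF-hand protein PDCD6 and tethers RNA granules to lysosomes. In H82 it went from 10.4, 11.1 and 11.2 TPM to 21.7, 21.8 and 18.0 TPM. In H146 it went from 72.1, 76.2 and 64.6 TPM to 59.2, 52.3, 66.8 and 66.1 TPM. The H82 groups lay apart, whereas those of H146 overlapped. Its log2 fold change was 0.85 in H82 (SE 0.15, limma adjusted *p* = 0.00298), past the threshold with any library left out. In H146 it was -0.22 (95% interval -0.51 to 0.08, limma adjusted *p* = 0.192), and with the median of ratios it reached -0.53 (limma adjusted *p* = 0.00362).

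The remaining members were *ANXA9* and *ANXA13*. *ANXA9* (ENSG00000143412.10, chromosome 1, 150982249 to 150995634), an atypical annexin whose core has lost calcium-binding residues, was at 4.10, 3.55 and 2.80 TPM in untreated and 3.21, 3.50 and 2.86 TPM in treated H82. In H146 it was at 17.4, 19.7 and 18.6 TPM untreated and 17.0, 14.6, 12.98 and 12.3 TPM treated. The H82 groups overlapped, whereas those of H146 did not. Neither value passed the threshold, with -0.09 in H82 (95% interval -0.57 to 0.39, limma adjusted *p* = 0.72) and -0.37 in H146 (-0.70 to -0.03, limma adjusted *p* = 0.0675). Without treated replicate 1 the H146 value was -0.45 (limma adjusted *p* = 0.0386), and scaling by the median of ratios took it to -0.67 (limma adjusted *p* = 0.00961), while quantile normalization turned the H82 value to 0.86 (limma adjusted *p* = 0.0115). *ANXA13*, an annexin of intestinal and kidney epithelium on chromosome 8, was listed at 0 in 5 of 6 H82 libraries and reached at most 0.31 TPM in H146, where an exact permutation test gave *p* = 0.114. It was not tested with limma in either line.

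Whether the responses differed between the lines was tested with an interaction term over all 13 libraries. It passed the threshold for 5 of the 9 annexins tested, where 59.3% of 24374 genes passed it, 46.0% toward H146 and 13.3% toward H82. The difference (H146 minus H82, log2) was -2.26 for *ANXA5* (SE 0.35, limma adjusted *p* = 0.000172), -1.85 for *ANXA6* (SE 0.23, limma adjusted *p* = 3.6e-05), -1.59 for *ANXA7* (SE 0.20, limma adjusted *p* = 4.3e-05) and -1.07 for *ANXA11* (SE 0.18, limma adjusted *p* = 0.00032). These 4 members responded more negatively in H146 and remained past the threshold with any library left out and under both other scalings. The median difference of all genes was 0.75. For *ANXA1* the difference was 1.69 (SE 0.46, limma adjusted *p* = 0.0076), but it was 0.05 with a pseudocount of 0.1 TPM in place of 1 (limma adjusted *p* = 0.965). The *ANXA1* call was also lost under either other scaling, where the value was 1.16 (median of ratios, with a limma adjusted *p* of 0.0605) and 0.85 (quantile normalization, with a limma adjusted *p* of 0.193). For *ANXA4* it was -0.39 (95% interval -0.91 to 0.12, limma adjusted *p* = 0.171), for *ANXA3* -0.66 (-1.50 to 0.18, limma adjusted *p* = 0.159), for *ANXA9* -0.28 (-0.76 to 0.21, limma adjusted *p* = 0.304) and for *ANXA2* -0.07 (-0.70 to 0.56, limma adjusted *p* = 0.852). All of these 4 passed the threshold under the median of ratios, with differences from -1.21 to -0.88.

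Since TPM is a level per length, the annexins of a library can be set beside each other. Their summed level was 279.6 to 287 TPM in untreated and 365 to 419 TPM in treated H82, and 598 to 644 TPM in untreated and 425 to 523 TPM in treated H146. The sum was thus higher in all treated H82 libraries and lower in all treated H146 libraries than in their controls, and treated libraries of the lines lay closer to each other than untreated ones. Mitochondrially encoded genes held 22.1% to 24.1% of the TPM in untreated and 12.3% to 14.9% in treated H82. In H146 they held 7.56% to 8.86% untreated and 3.82% to 11.4% treated. The part of this share in the annexin sums was not tested. In untreated H82 the order was *ANXA2*, *ANXA6*, *ANXA7* and *ANXA5*, of which *ANXA7* and *ANXA5* overlapped in range, and in treated H82 *ANXA5* stood second with a range that overlapped that of *ANXA2*. In untreated H146 *ANXA7* led, followed by *ANXA2* and *ANXA6* with overlapping ranges. In treated H146 *ANXA2* and *ANXA7* overlapped at the head, and *ANXA1*, seventh without the drug, came after *ANXA11* with a range that overlapped those of *ANXA11* and of *ANXA5*, the next in the order.

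As shares of the summed annexin level, *ANXA7* took 39.3% ± 1.17 (SD, n = 3) in untreated and 27.2% ± 3.46 (SD, n = 4) in treated H146. *ANXA6* went from 16.9% ± 0.754 to 4.25% ± 0.842, *ANXA1* from 0.859% ± 0.0434 to 11.3% ± 2.81, and *ANXA2* from 18.1% ± 0.545 to 30.9% ± 5.66 in the same groups. In H82 (SD, n = 3 and 3) *ANXA5* went from 16.2% ± 0.952 to 27.8% ± 3.38 and *ANXA6* from 27.8% ± 1.89 to 13.5% ± 2.91, whereas *ANXA2* was at 30.4% ± 0.925 and 28.3% ± 5.32. The share of *ANXA6* thus shrank in both lines, with no overlap between the groups.

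**Figure D3:**
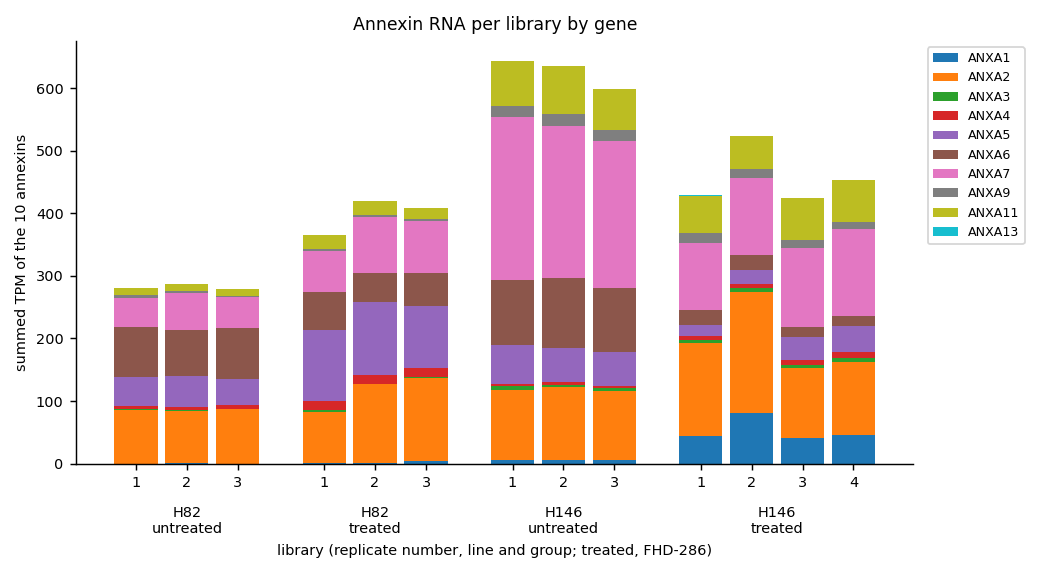
Summed TPM of the 10 annexins in each of the 13 libraries (bar height, from 0), stacked by gene. The H82 bars rise from 279.6 to 287 TPM untreated to 365 to 419 TPM treated, the H146 bars shrink from 598 to 644 TPM to 425 to 523 TPM, and the *ANXA1* segment at the foot of the treated H146 bars is thin in the untreated ones.

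Annexins form tetramers and complexes with S100 and other EF-hand proteins, and of 8 such partners 7 were tested in H82, where 4 were higher and 1 was lower. In H146 6 were tested, with 3 higher, of which *S100B* passed the filter only through the treated libraries, and 2 lower. With the median of ratios 6 were higher and 1 lower in H82, and 3 were higher and 3 lower in H146. Without treated replicate 2 of H82, 6 were tested there, with 3 higher and 1 lower. Tested partners had a median log2 fold change of 1.12 (H82) and 0.09 (H146), beside -0.56 and 0.25 for all genes. Of all genes tested 58.6% were called in H82 and 47.9% in H146. *S100A10*, the partner of *ANXA2*, was at 0.124, 0.168 and 0.531 TPM in untreated and 9.06, 38.4 and 30.9 TPM in treated H82. In H146 it was at 0.563, 0.249 and 0.622 TPM untreated and 0.641, 0.966, 5.84 and 5.45 TPM treated. It was thus scarce beside *ANXA2* in every untreated library, and rose in H82 by 4.21 on the log2 scale (SE 0.50, limma adjusted *p* = 0.000629), where it passed the filter only through the treated libraries. With replicate 2 or any other treated H82 library left out, it was not tested there. In H146 it was not tested with limma, and an exact permutation test gave *p* = 0.143.

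*S100A11*, which binds the N-terminal tail of ANXA1, was at 4.23, 1.14 and 5.42 TPM in untreated and 49.2, 86.9 and 28.3 TPM in treated H82. In H146 it was at 3.41, 3.95 and 3.59 TPM untreated and 6.95, 11.1, 28.2 and 23.6 TPM treated. It was higher in both lines, by a log2 fold change of 3.60 in H82 (SE 0.52, limma adjusted *p* = 0.00128) and 1.80 in H146 (SE 0.42, limma adjusted *p* = 0.0084). Replicates 3 and 4 of treated H146 were the high ones for both *S100A10* and *S100A11*, as they were for *ANXA4* and *ANXA5*, and replicate 2, highest in *ANXA1*, was not among them.

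*S100A6*, a partner of ANXA11, had the largest fall of the list in H146, from 424, 513 and 568 TPM to 295, 242, 201 and 205 TPM (log2 fold change -1.09, SE 0.17, limma adjusted *p* = 0.0013). In H82 it was at 1.78, 2.67 and 1.48 TPM untreated and 11.4, 158 and 9.19 TPM treated, so that most of the treated H82 mean came from replicate 2. The log2 fold change there was 3.22, and 1.94 without that library (limma adjusted *p* = 0.00249). The largest fall of the list in H82 was that of *S100A1*, at -1.70 (SE 0.20, limma adjusted *p* = 0.000548), and it passed the filter only through the untreated libraries.

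Plasminogen is activated on the surface where ANXA2 and S100A10 meet, and of 4 genes of this system 2 were tested in H82, with 1 higher and 1 lower, and 2 in H146, both lower. Beside these few genes, 58.6% (H82) and 47.9% (H146) of all genes tested were called. *PLG*, plasminogen itself, was listed at 0 in the 3 untreated H82 libraries and at 2.98, 1.94 and 1.62 TPM in the treated ones. It was called higher there (limma adjusted *p* = 0.000837) but passed the filter only through the treated libraries, so no fold is given, and with any treated library left out it was not tested. *PLAUR*, the urokinase receptor, was lower in both lines, by -1.07 in H82 and -0.73 in H146, although in H82 the call was lost under the median of ratios and quantile normalization. *PLAU*, urokinase itself, had the largest fall in H146, at -1.14 (SE 0.20, limma adjusted *p* = 0.00256). It reached 1 TPM in 3 of 3 untreated and 1 of 4 treated libraries, so it needed untreated libraries to meet the filter. Without treated replicate 2 of H82, *PLAUR* was the 1 gene of these 4 tested there, and it was lower.

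Annexins act beside dysferlin, calpains, caveolae and the ESCRT machinery when a torn membrane is resealed. Of 15 genes of that group 10 were tested in H82, with 2 higher and 2 lower, and 12 in H146, with 1 higher and 3 lower. The shares called among all genes tested were 58.6% in H82 and 47.9% in H146, above those of this group. *PTRF* (also *CAVIN1*), a coat protein of caveolae, had the largest rise in H82, from 0.301, 0.542 and 0.481 TPM to 5.27, 7.98 and 9.30 TPM (log2 fold change 2.54, SE 0.24, limma adjusted *p* = 0.000306), through the treated libraries alone. *AHNAK*, a giant scaffold that binds ANXA2 and S100A10, had the largest fall there, at -0.81 (limma adjusted *p* = 0.0183). It reached 1 TPM in 3 of 3 untreated and 1 of 3 treated libraries, so it needed untreated libraries to meet the filter. In H146 the largest rise was that of *VPS4A*, the ESCRT ATPase, at 0.63 (limma adjusted *p* = 0.00246), and the largest fall that of the calpain *CAPN2*, at -1.17 (limma adjusted *p* = 0.000457). The median of ratios gave 5 higher and 0 lower in H82, and 1 higher and 5 lower in H146. Without treated replicate 2 of H82, 1 gene was higher, the calpain small subunit *CAPNS1*, and 0 were lower.

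Annexins bind phosphatidylserine, which flippases hold on the inner leaflet and scramblases expose. Of 10 such genes 8 were tested in H82, with 2 higher and 3 lower, and 7 in H146, with 3 higher and 1 lower. These counts were near the shares of all genes tested that were called, 58.6% in H82 and 47.9% in H146. *TMEM30A*, the chaperone subunit of most flippases, was at 74.1, 77.1 and 69.0 TPM in untreated and 398, 368, 375 and 397 TPM in treated H146, a tight group far above its control (log2 fold change 2.37, SE 0.10, limma adjusted *p* = 3.0e-06). In H82 it was lower, from 76.5, 96.4 and 82.4 TPM to 40.2, 56.9 and 56.0 TPM, and its interaction term was 3.11 (limma adjusted *p* = 3.6e-07). *ATP8A1*, a flippase, had the largest fall in H82, at -1.40 (SE 0.18, limma adjusted *p* = 0.000759), and *ATP11A*, another flippase, the largest rise, at 0.80 (limma adjusted *p* = 0.0235), though it passed the filter only through the treated libraries. The largest fall in H146 was that of the scramblase *PLSCR1*, at -0.45 (limma adjusted *p* = 0.0288). That call was lost with any untreated H146 library left out, and without treated replicate 1. Without treated replicate 2 of H82, 0 genes were higher and 3 lower (*ATP8A1*, *ATP11B* and *TMEM30A*), and under the median of ratios 3 were higher and 1 lower.

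**Figure D4:**
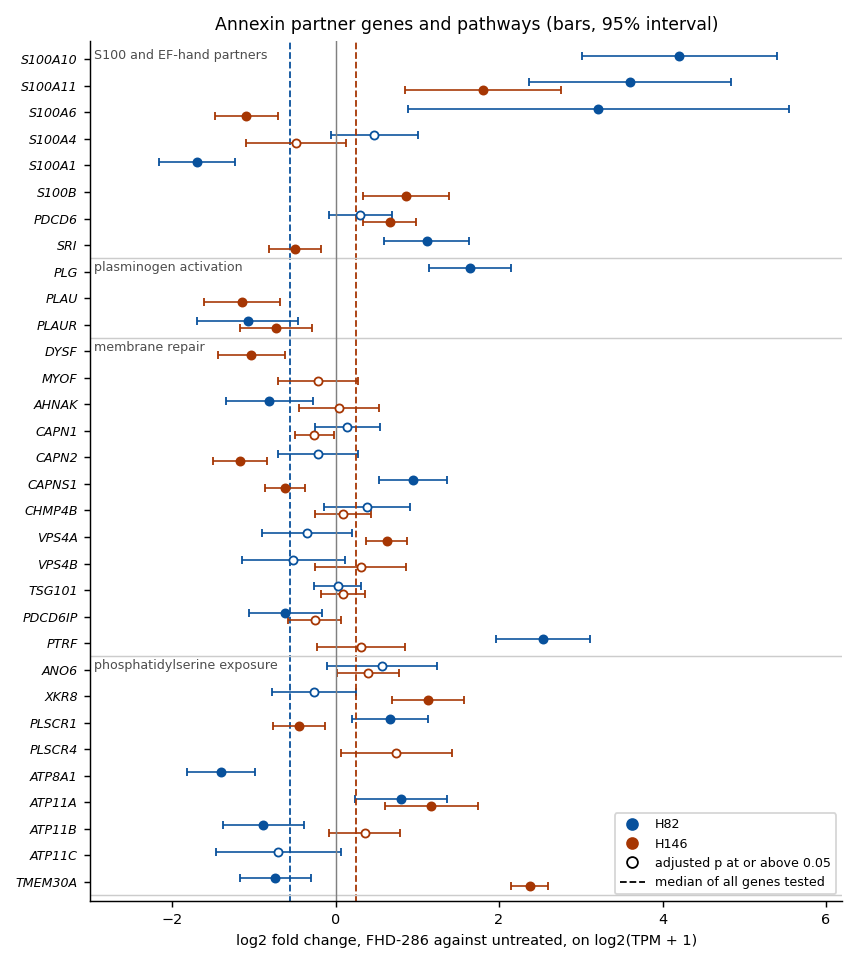
Log2 fold change upon FHD-286 on log2(TPM + 1) (x axis, 95% limma intervals as bars) for the tested genes of the 4 partner groups, H82 in blue and H146 in red, filled where the adjusted *p* was under 0.05, with dashed lines at the median of all genes of each line. *S100A10* and *S100A11* lie farthest right in H82 at 4.21 and 3.60, and *TMEM30A* at 2.37 in H146 against -0.74 in H82.

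Epithelial genes and markers of fibroblast, endothelial and immune cells also differed between treated and untreated libraries, in directions that varied with the list and the line. The epithelial list (*EPCAM*, *KRT8*, *KRT18*, *KRT19*) summed to 1.48 to 3.61 TPM in untreated and to 15.5, 113 and 9.05 TPM in treated H82, of which replicate 2 held the 113 TPM. It summed to 2175 to 2358 TPM and 512 to 591 TPM in untreated and treated H146, where 4 of 4 were lower. In H82 *KRT8* and *KRT18* were called higher, and both passed the filter only through the treated libraries. The fibroblast list (*COL1A1*, *COL1A2*, *DCN*, *LUM*) summed to 0.912 to 1.84 TPM in untreated and 6.99 to 32.0 TPM in treated H82, where *COL1A2*, *DCN* and *LUM* were tested only because of the treated libraries and were called higher, and to 6.43 to 8.45 TPM and 12.2 to 18.9 TPM in H146, where 1 of 2 was higher. The endothelial list (*PECAM1*, *VWF*, *CDH5*) summed to at most 2.62 TPM, with *CDH5* at or near 0. In H146 *VWF* was at 1.60 to 2.25 TPM untreated and 0.0307 to 0.137 TPM treated. It met the filter only through untreated libraries and was called lower (limma adjusted *p* = 0.000353). The immune list (*PTPRC*, *CD3E*, *LYZ*) summed to at most 0.711 TPM in H82 and 9.02 TPM in H146, with *CD3E* at or near 0. In H146 *PTPRC* was at 3.29 to 6.75 TPM and was not called. *LYZ* was at 0.219 to 0.489 TPM untreated and 1.25 to 2.68 TPM treated there. It met the filter only through treated libraries and was called higher (limma adjusted *p* = 0.00247). Fewer cells of a type and less RNA per cell cannot be told apart in bulk libraries, and the part of these markers in the annexin values was not tested. Without treated replicate 2 of H82 1 epithelial gene was tested, *EPCAM*, and it missed the threshold (0.39, limma adjusted *p* = 0.388). Of the fibroblast list 1 gene was tested then, *LUM*, and it was called higher (1.58, limma adjusted *p* = 0.00752).

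The tables listed 7 further symbols that start with ANXA, namely *ANXA8*, *ANXA8L1*, *ANXA10*, *ANXA2R* and the pseudogenes *ANXA2P1*, *ANXA2P2* and *ANXA2P3*. *ANXA8*, *ANXA8L1* and *ANXA10* stayed under 1 TPM in all libraries, with a maximum of 0.915 TPM for *ANXA10* in treated H82. *ANXA2R*, proposed as a receptor for annexin A2, was at 0.724 to 1.10 TPM in untreated and 1.75 to 3.085 TPM in treated H146 and was higher (log2 fold change 0.79, SE 0.21, limma adjusted *p* = 0.0133), but reached the filter only through the treated libraries.

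The genes whose log2(TPM + 1) followed *ANXA1* most closely were *TXNRD1*, *FOXC1* and *C16orf52*, each with a Pearson correlation of 0.98 over the 13 libraries among 12661 genes tested in both lines. The annexin members and all symbols starting with LOC, AC, AL, RP or CTD were left out of this ranking, known genes among them. Mean levels of *TXNRD1*, thioredoxin reductase, were 135 and 221 TPM in untreated and treated H82 and 363 and 1003 TPM in H146. *FOXC1*, a forkhead transcription factor, went from 0.235 to 2.00 TPM and from 4.92 to 39.4 TPM in the same order. *ANXA2* was followed most closely by *APP* (0.96), *CTSB* (0.93) and *MBOAT1* (0.90). The points fall into 4 groups that share line and treatment, so these correlations are a description of the group levels and carry no test.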

How the data were processed

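The authors trimmed reads with Trim Galore 0.4.4 (per the labels), used STAR for mapping (hg38) and for gene counts (GENCODE release 28), and deposited TPM values, which keep no depth and carry no scaling between libraries beyond their common sum. How gene length and strand were taken is not given in the sources used here. The authors used DESeq2 on counts, and since TPM are not counts, limma 3.58.1 (R 4.3.3, lmFit, eBayes with trend) was run here on log2(TPM + 1), per line and as an interaction over 13 libraries. Members under the filter were compared with a two-sided exact permutation test. The code was tested on simulated data. Alternatives were a pseudocount of 0.1 TPM, no filter, a mean TPM above 2, the median of ratios, quantile normalization, a replicate block, eBayes with no trend and each library left out. Leaving treated H82 replicate 2 out of the partner and marker lists was chosen after seeing the data. The members and lists were chosen with earlier results of these data known. Named were all members, *S100A10* and *S100A11*, the largest rise and fall past the threshold in each list and line, and the 3 genes most like *ANXA1* and *ANXA2*. *PLAUR* in H146, *S100A6*, *TMEM30A*, *CAPNS1*, *ATP11B*, *KRT8* and *KRT18* in H82, *S100B* in H146, and *ANXA4* neighbor *AAK1* were named after their values were seen. *CAVIN1* was matched through its older symbol *PTRF*. Coordinates are from GENCODE release 44, sequences from RefSeq, and plots were drawn with Python 3.11.15 and matplotlib 3.10.9. 1 gene of the partner lists is not reported here.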

Additional observations from a re-analysis of the deposited data

Results flagged for a closer look

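The *ANXA1* level in treated H146 was marked because 1 of its 4 libraries, replicate 2 at 81.3 TPM, lay far from the others at 41.2 to 45.2 TPM. Its gap to the nearest library was 0.899 of the whole range of the group, above the Dixon limit for 4 values. Among the 10 annexins tested in this group by that limit it was the only one to pass, and chance alone passes about 5 in 100 such groups. Without that library the log2 fold change of *ANXA1* in H146 was 2.80, and the gene was called with each of the 7 libraries left out.

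The interaction test marked 5 annexins whose response differed between the lines, where 59.3% of all genes tested did. The difference, H146 minus H82 on the log2 scale, was 1.69 for *ANXA1*, -2.26 for *ANXA5*, -1.85 for *ANXA6*, -1.59 for *ANXA7* and -1.07 for *ANXA11*. With a pseudocount of 0.1 TPM the *ANXA1* difference was 0.05 (limma adjusted *p* = 0.965). Its call was also lost under the median of ratios and quantile normalization, so the *ANXA1* difference depends on the scale used. *ANXA5* and *ANXA7* were higher upon FHD-286 in all treated H82 libraries and lower in all treated H146 libraries than in their controls.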

How the results depend on the processing

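Of 409 values computed under an alternative, 364 kept their direction and their side of the threshold. With 1 library left out, 3 to 5 annexins were higher and 0 to 1 lower in H82, 2 to 2 were higher and 2 to 4 lower in H146, and 5 to 5 differed between the lines. The higher count in H82 was 3 without untreated replicate 1 or 3, or without treated replicate 2 or 3, and the lower count was 0 without untreated replicate 1 or 3 or treated replicate 2. The lower count in H82 went from 1 to 0 under the median of ratios and 0 with quantile normalization, and the lower count in H146 from 3 to 5 and 5. The higher count in H146 went from 2 to 1 with quantile normalization and to 1 with the replicate block, and the count of differences from 5 to 8 under the median of ratios. The cause was not tested. Reversals affected values near 0. *ANXA9* in H82 turned to 0.29 under the median of ratios, 0.86 with quantile normalization and 0.0072 without untreated replicate 1 (range with 1 library left out -0.20 to 0.0072). *ANXA2* in H146 turned to -0.020 under the median of ratios. The *ANXA2* difference turned to 0.012 with the replicate block, and ranged from -0.29 to 0.064 with 1 library left out, above 0 without treated replicate 2 or 3 of H82 or 3 or 4 of H146.

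The labels give replicate numbers but do not say that same-numbered libraries were paired. Deviations of same-numbered libraries correlated at -0.11 to 0.03 over 6 pairs, which cannot show whether they were handled together. With the number as a block, in which treated H146 replicate 4 has no partner, *ANXA3* in H82 (limma adjusted *p* = 0.0529) and *ANXA4* in H146 (limma adjusted *p* = 0.0571) were past the threshold no longer, and 4 annexins were higher in H82. Values near 1 TPM, as for *ANXA3* and *ANXA1* in H82, depend on the pseudocount and the filter, and depth is unknown.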
